A study of Mus musculus with 81 samples.

Results

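The 71 genes described here encode the proteins of the mitochondrial ribosome that carry an Mrpl or Mrps symbol followed by a number. They were taken from the platform's probe annotation, from probe sets with a single gene symbol, and where a gene had several, the one with the highest average level on the 81 arrays stands for it. They are 71 of 22180 genes measured, with 43 Mrpl and 28 Mrps genes, and all 71 carry the same symbol in RefSeq as protein-coding genes. A further 7 symbols (Mrpl30, Mrpl33, Mrpl41, Mrpl43, Mrpl44, Mrpl53 and Mrps6) lay only on probe sets shared with other symbols and were not analysed here. By structure, 28 members are large subunit proteins with a bacterial relative, 17 are large subunit proteins particular to mitochondria (including Mrps30 and Mrps18a, which sit in the large subunit despite their names), 15 are small subunit proteins with a bacterial relative and 10 are small subunit proteins particular to mitochondria. The remaining gene is Mrps36, whose product is now regarded as a part of the 2-oxoglutarate dehydrogenase complex. Since it matched the symbol rule it was kept.

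Hearts of male BXD mice, a panel of inbred lines derived from crosses of C57BL/6J and DBA/2J, were profiled on 81 Affymetrix arrays, 39 from a high fat diet and 42 from chow. All mice were 29 weeks old, were fasted overnight and had their hearts perfused, and each array held an even RNA pool of about 5 males of 1 strain on 1 diet. A total of 39 strains (37 BXD strains, DBA/2J and C57BL/6J) had an array on both diets, and 3 further BXD strains had chow only. Each strain and diet thus had 1 array, so the spread between animals was not seen, and the replicate of a diet was the strain.

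Mitochondria keep a small genome of their own that encodes core subunits of the respiratory chain, and these proteins are made on a dedicated ribosome. Its ribosomal RNAs come from mitochondrial DNA, while all of its proteins are encoded in the nucleus, made in the cytosol and imported. The heart depends on oxidative metabolism, and loss of individual mitochondrial ribosomal proteins in humans is known to cause cardiomyopathy. Nuclear genes of this kind are known as targets of the factors NRF1, GABP (an ETS factor) and YY1.

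The promoters of the members whose patterns are described furthest below are printed here, with 250 bases before and 50 after the RefSeq start site (GRCm38.p6), read 5′ to 3′ on the gene's strand. Capitals mark matches to the NRF1 motif (GCGCA and GCGC with 1 base of any kind between them), an ETS motif (CCGGAAG) or a YY1 motif (AAGATGGCG) on either strand. Mrpl35 and Mrpl20 are shown because they were the members with the most repeatable strain differences, and Mrpl18 and Mrpl51 because they followed the mean of the other members most closely.
Mrpl35 (chr6:71823735-71824034, minus strand): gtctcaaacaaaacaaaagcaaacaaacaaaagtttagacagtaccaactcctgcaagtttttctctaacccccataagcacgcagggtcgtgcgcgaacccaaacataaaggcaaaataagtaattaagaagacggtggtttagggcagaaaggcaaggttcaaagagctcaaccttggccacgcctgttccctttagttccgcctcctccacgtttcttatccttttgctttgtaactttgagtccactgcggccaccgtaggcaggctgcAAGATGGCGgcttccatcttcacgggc
Mrpl20 (chr4:155802628-155802927, plus strand): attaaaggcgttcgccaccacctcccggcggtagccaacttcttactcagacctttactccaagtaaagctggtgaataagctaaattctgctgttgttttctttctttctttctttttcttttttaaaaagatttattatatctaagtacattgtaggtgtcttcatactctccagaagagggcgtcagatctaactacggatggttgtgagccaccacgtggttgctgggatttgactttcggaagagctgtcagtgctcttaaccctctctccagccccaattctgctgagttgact
Mrpl18 (chr17:12916042-12916341, minus strand): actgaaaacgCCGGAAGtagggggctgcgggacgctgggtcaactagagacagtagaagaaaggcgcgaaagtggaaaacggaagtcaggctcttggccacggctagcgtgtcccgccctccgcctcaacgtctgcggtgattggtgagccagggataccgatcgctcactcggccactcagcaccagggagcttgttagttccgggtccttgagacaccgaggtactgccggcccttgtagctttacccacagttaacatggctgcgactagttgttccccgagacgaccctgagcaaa
Mrpl51 (chr6:125191950-125192249, plus strand): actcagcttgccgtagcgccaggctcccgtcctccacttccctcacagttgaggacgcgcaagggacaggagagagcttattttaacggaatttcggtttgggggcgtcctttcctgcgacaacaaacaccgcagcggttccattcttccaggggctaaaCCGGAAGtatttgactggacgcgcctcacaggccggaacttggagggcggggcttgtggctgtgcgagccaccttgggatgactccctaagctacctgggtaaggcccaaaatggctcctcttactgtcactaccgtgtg
The Mrpl35 window held a YY1 match from base 23 to base 31 after the start. The Mrpl18 and Mrpl51 windows each held 1 ETS match, the Mrpl18 match from base -240 to base -234 and the Mrpl51 match from base -90 to base -84. The Mrpl20 window held no match to these 3 motifs.

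Promoters of 62 members were found in the RefSeq table, and 58.1% of them held at least 1 of the NRF1, ETS and YY1 motifs, against 15.1% of the promoters of 27025 genes. The ETS motif was present in 37.1% of members and 9.93% of all genes, the NRF1 motif in 17.7% and 5.19%, and the YY1 motif in 12.9% and 1.64%. The E-box CACGTG was found in 8.07% of members and 8.09% of all genes, and CCAAT in 38.7% and 41.1%. The motif TCAAGGTCA of oestrogen-related receptors matched in 0 of 62 member windows and in 0.466% of all genes. GGGCGG, the Sp factor motif, was found in 51.6% of members and 38.2% of all genes. These counts describe letters in a window of 300 bases on both strands and do not show binding.

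The deposited values are on a log-like scale whose base is not known, each array having been brought to a mean of 8 and an SD of 2. Differences are therefore given in units of that scale and not as folds. The mean level of a member over the arrays ran between 6.99 and 12.2 units, with a median of 10.2 units, and 67 of 71 members lay above the median gene level of 8.18 units. Mrpl22, Mrpl27, Mrps14 and Mrps36 lay below it. The tissue label was checked with 9 ventricular cardiomyocyte markers, and all 9 lay above the median gene level.

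Single mitochondrial ribosomal protein genes differed between the diets in both directions, and the median of the group was close to 0. At an adjusted p under 0.05 in the paired fit (limma, Benjamini-Hochberg over all genes), 13 members were higher on high fat and 15 were lower, with 43 not called. Of all genes tested 45.0% were called, with 23.8% higher and 21.2% lower on high fat, so that the 39.4% of members called was no larger a share. In whole hearts fewer cells of a type and less RNA per cell cannot be told apart. The median difference of the members, high fat minus chow, was 0.0044 units, against 0.0053 units for all genes. The median size of a difference was 0.054 units in members and 0.084 units in all genes. All 28 called members had levels that overlapped between the diets.

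The mean of all members within an array was close to the same on both diets. It ran from 9.99 units (lowest) over a median of 10.14 units to 10.27 units (highest) in high fat hearts, and from 9.99 units over 10.16 units to 10.30 units in chow hearts. The difference averaged -0.0014 ± 0.0863 units (SD, 39 strains), with 21 strains higher and 18 lower on high fat. The most negative difference was in BXD63 (-0.203 units) and the most positive in BXD90 (0.175 units).

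**Figure D1:**
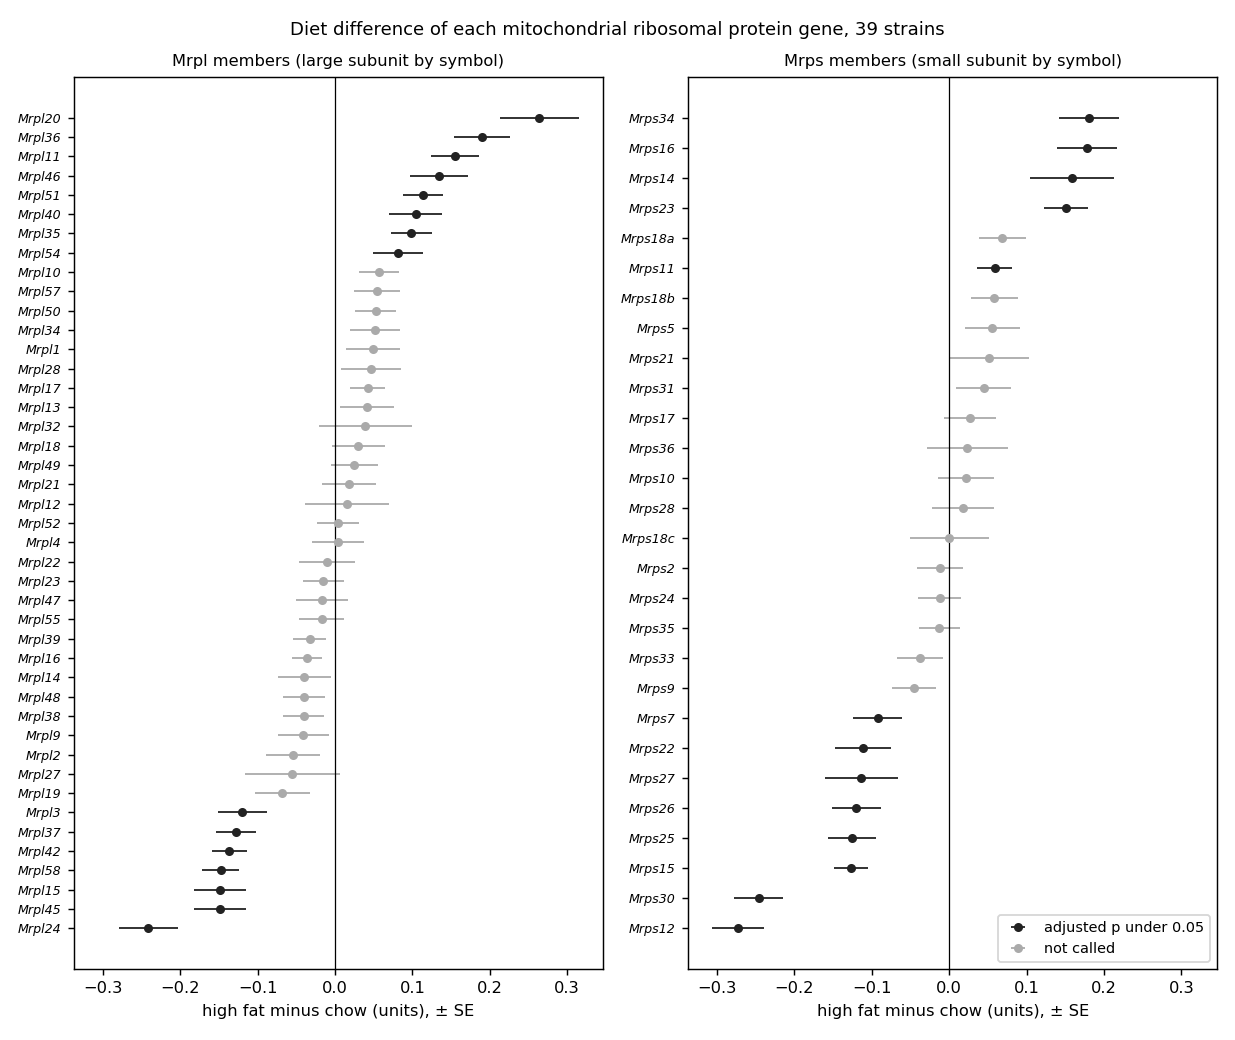
Difference between diets (high fat minus chow, in units of the deposited scale) for each of the 71 members, with the standard error of the paired fit over 39 strains; black points had an adjusted p under 0.05. Called members lie on both sides of 0, from Mrps12 at -0.273 units to Mrpl20 at 0.264 units.

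Among large subunit proteins with a bacterial relative, 4 of 28 members were higher and 3 were lower on high fat. Together 25% of this class were called, against 45.0% of all genes. Mrpl20, a protein that in bacteria takes part in early assembly of the large subunit, ran from 8.09 units over a median of 9.31 units to 10.20 units in high fat hearts, against 8.07, 8.93 and 9.63 units in chow hearts. The highest value was that of DBA/2J on high fat, and the groups overlapped over nearly their whole range. Mrpl20 rose by 0.264 ± 0.0514 units (SE, adjusted p = 4.87e-05) and was higher in 31 of 39 strains. Mrpl36, a very small protein with a bacterial relative, ran from 9.02 over 9.32 to 9.64 units in high fat hearts, against 8.68, 9.12 and 9.46 units in chow hearts, and rose by 0.189 ± 0.0361 units (adjusted p = 3.67e-05). The strain ranges overlapped, with 32 of 39 strains higher on high fat.

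Mrpl11, which in bacteria forms the base of the stalk where translation factors bind, ran from 9.03 over 9.48 to 9.85 units in high fat hearts, against 8.92, 9.36 and 9.57 units in chow hearts. It rose by 0.155 ± 0.0306 units (adjusted p = 5.97e-05), in 30 of 39 strains. Mrpl35, a large subunit protein, was also called, at 0.0988 ± 0.0259 units (adjusted p = 0.00181), and was higher in 29 strains. Its levels are described with the strain differences.

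Mrpl24, whose bacterial relative starts assembly of the large subunit, fell by 0.241 ± 0.0375 units (adjusted p = 1.23e-06). It ran from 9.93 over 10.55 to 10.88 units in high fat hearts, against 10.11, 10.76 and 11.16 units in chow hearts, and was lower in 34 of 39 strains with overlapping ranges. Mrpl15 fell by 0.149 ± 0.0333 units (adjusted p = 0.000313), with 10.50, 10.91 and 11.19 units (lowest, median and highest) in high fat hearts and 10.68, 11.11 and 11.39 units in chow hearts. In 30 of 39 strains Mrpl15 was lower on high fat. The third gene of this class to fall was Mrpl3, a protein close to the peptidyl transferase centre, by 0.120 ± 0.0316 units (adjusted p = 0.00189) and in 25 strains. Without pairing by strain neither Mrpl35 nor Mrpl3 was called.

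Mrpl12, the stalk protein that is also known to bind the mitochondrial RNA polymerase, was not called. It ran from 10.47 over 10.99 to 11.65 units in high fat hearts, against 10.41, 10.97 and 11.39 units in chow hearts, a difference of 0.0154 ± 0.0542 units (adjusted p = 0.840). Strains went both ways, with 22 higher and 17 lower.

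Of the 17 large subunit proteins particular to mitochondria, 4 were higher and 5 lower. That was 52.9% of the class, against 45.0% of all genes. Mrps30, a large subunit protein despite its name, ran from 9.07 over 9.496 to 9.978 units in high fat hearts, against 9.35, 9.79 and 10.05 units in chow hearts. It fell by 0.246 ± 0.0320 units (adjusted p = 3.28e-08) and was lower in 35 of 39 strains, although the ranges overlapped. Mrpl58, a peptidyl-tRNA hydrolase built into the ribosome that can free stalled chains, fell by 0.148 ± 0.0236 units (adjusted p = 2.01e-06), in 32 strains. Its levels were 10.13, 10.39 and 10.66 units in high fat hearts and 10.20, 10.57 and 10.75 units in chow hearts.

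Mrpl42 fell by 0.136 ± 0.0220 units (adjusted p = 2.43e-06), in 34 strains, with 11.43, 11.63 and 11.85 units in high fat hearts and 11.58, 11.75 and 12.05 units in chow hearts. Mrpl37 fell by 0.128 ± 0.0254 units (adjusted p = 6.56e-05), in 33 strains, with 11.32, 11.61 and 11.91 units in high fat hearts and 11.44, 11.73 and 11.97 units in chow hearts. The ranges of both genes overlapped over most of their width. In the opposite direction, Mrpl51 rose by 0.113 ± 0.0259 units (adjusted p = 0.000411), in 32 strains, with 11.34, 11.52 and 11.90 units in high fat hearts and 11.13, 11.43 and 11.69 units in chow hearts. Mrps18a was higher in 27 strains, but its 0.0687 ± 0.0305 units did not pass the threshold (adjusted p = 0.0625).

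In the small subunit, 3 of 15 proteins with a bacterial relative were higher and 3 lower, and 2 of 10 particular to mitochondria were higher and 4 lower. The called shares of these small classes were 40% and 60%, against 45.0% of all genes. Mrps12, the protein of the decoding centre whose bacterial relative is the site of streptomycin resistance, had the largest fall of any member. It ran from 8.09 over 8.35 to 8.81 units in high fat hearts, against 8.29, 8.65 and 8.93 units in chow hearts. It fell by 0.273 ± 0.0336 units (adjusted p = 9.93e-09), in 35 of 39 strains, with overlapping ranges. Mrps15, which in bacteria binds the small ribosomal RNA early in assembly, fell by 0.127 ± 0.0219 units (adjusted p = 7.89e-06), in 32 strains, with 11.50, 11.73 and 11.88 units in high fat hearts and 11.66, 11.83 and 12.04 units in chow hearts.

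Mrps16, whose loss in humans causes a respiratory chain defect, rose by 0.178 ± 0.0390 units (adjusted p = 0.000252), in 31 strains, with 8.87, 9.34 and 9.78 units in high fat hearts and 8.56, 9.13 and 9.45 units in chow hearts. Mrps23, particular to mitochondria, rose by 0.151 ± 0.0289 units (adjusted p = 3.98e-05), in 33 strains, with 11.59, 11.94 and 12.22 units in high fat hearts and 11.51, 11.79 and 12.01 units in chow hearts. Both genes overlapped between the diets. Mrps34 was called at 0.180 ± 0.0387 units (adjusted p = 0.000186) and was higher in 29 strains.

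Mrps5, whose expression was linked to lifespan in an earlier study of BXD mice, was not called for diet. It ran from 9.14 units (DBA/2J) over 9.61 to 9.98 units in high fat hearts, against 9.20, 9.56 and 9.999 units in chow hearts, a difference of 0.0559 ± 0.0360 units (adjusted p = 0.208). The 3 genes with an Mrps18 symbol showed no called difference either. Beside Mrps18a above, Mrps18b differed by 0.0584 ± 0.0307 units (adjusted p = 0.119) and Mrps18c by 0.0002 ± 0.0514 units (adjusted p = 0.998). Mrps36 differed by 0.0233 ± 0.0521 units (adjusted p = 0.744).

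Controls on the same arrays bear on the size of these differences. Of 92 ERCC spike-in probe sets 37 were called between the diets (40.2%), and 95% of them differed by no more than 0.247 units in size. Only Mrps12 and Mrpl20 lay beyond that value. Of 75 other control probe sets 19 were called, with 95% differing by no more than 0.388 units, and 0 members lay beyond that. For the 23 background probe sets, of which 6 were called, that value was 0.0704 units, and 27 of the 28 called members lay beyond it. Mean levels were 5.96 units for the ERCC, 9.03 units for the other and 6.90 units for the background probe sets. All were below the median member level of 10.2 units, so the controls are not matched to members in level. The part that the controls' shift has in the members' differences was not tested.

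Markers of heart cell types were also read for diet, beside the 45.0% of all genes called. Of 9 ventricular cardiomyocyte markers 6 were lower and 3 not called, and their mean ran from 14.57 over 14.73 to 14.96 units in high fat hearts, against 14.61, 14.79 and 15.00 units in chow hearts. Of 6 fibroblast markers 3 were higher and 3 not called, with means of 10.87, 11.17 and 11.55 units in high fat hearts and 10.77, 11.09 and 11.45 units in chow hearts. Of 6 macrophage markers 3 were likewise higher and 3 not called, with 9.70, 10.21 and 10.78 units in high fat hearts and 9.75, 10.10 and 10.71 units in chow hearts. Of 6 endothelial markers 2 were higher, 1 lower and 3 not called, and of 6 atrial markers 0 were called. The groups overlapped for all of these lists, and the part of these markers in the members' diet differences was not tested.

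A second probe set existed for 9 members. For Mrpl36 the second, dimmer probe set differed by -0.145 units against 0.189 units for the one used, and for Mrps16 by -0.147 units against 0.178 units. With the mean over a gene's probe sets neither Mrpl36 nor Mrps16 was called. The signs also differed for Mrpl10, Mrps5 and Mrps18c, none of which was called. For the remaining members the signs were the same. The dimmer probe set of Mrpl12 differed by 0.142 units against 0.0154 units for the one used. That of Mrps18b, nearly as bright (10.39 against 10.52 units), differed by 0.110 units against 0.0584 units. For Mrps17 the values were 0.0422 and 0.0273 units, and for Mrpl47 -0.0430 and -0.0165 units. The uncalled results of Mrpl12 and Mrps18b therefore hold for the probe set used.

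Strain differences were tested as the strain term of the same model. At an adjusted p under 0.05, 14 of 71 members (19.7%) differed between strains, against 14.8% of all genes and 23.5% of the genes above the median level. The size of a strain difference is given as an intraclass correlation, computed from both arrays of each strain after the diet means were removed, where 1 means that both arrays of every strain gave the same value. Its median was 0.245 in members and 0.155 in all genes. Complex I subunits (taken by Nduf symbol) had a median of 0.248 and cytosolic ribosomal proteins 0.230, so the members' value was not particular to them. Of the 14 called members 11 carry an Mrpl symbol and 3 an Mrps symbol, a split whose difference was not tested.

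Mrpl35 had the highest intraclass correlation of the members, at 0.911 (adjusted p = 1.96e-14). Its levels ran from 10.19 over 11.09 to 11.36 units in high fat hearts and from 10.08 over 10.95 to 11.25 units in chow hearts, in separate low and high clusters. In high fat hearts 11 strains lay between 10.19 and 10.61 units and 28 strains between 10.83 and 11.36 units. In chow hearts the same 11 strains lay between 10.08 and 10.54 units and the same 28 between 10.80 and 11.25 units, so all 39 strains kept their side on both diets. DBA/2J was in the low cluster and C57BL/6J in the high cluster.

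Polr1a, which encodes the largest subunit of RNA polymerase I and lies within 3 genes of Mrpl35, was singled out after its values were seen. It fell into clusters too, with 11 strains below its largest gap of 0.766 units, and these were the same 11 strains. Within the 11 low strains Mrpl35 and Polr1a correlated at r = -0.096 in high fat hearts and 0.052 in chow hearts. Within the 28 high strains they correlated at r = -0.18 in high fat hearts and 0.11 in chow hearts, so the relation across strains rests on the clusters. Ptcd3, a small subunit protein of the mitochondrial ribosome, also lies within 3 genes of Mrpl35, and within the 28 high strains it correlated with Mrpl35 at r = 0.11 in high fat hearts and 0.29 in chow hearts.

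Mrpl20, Mrpl55 and Mrpl3 followed, with intraclass correlations of 0.719 (adjusted p = 4.43e-07), 0.712 (adjusted p = 5.44e-06) and 0.699 (adjusted p = 6.59e-06). Mrpl55, a large subunit protein, ran from 10.61 over 10.85 to 11.56 units in high fat hearts and from 10.51 over 10.89 to 11.33 units in chow hearts. It showed no called diet difference (-0.0172 ± 0.0292 units, adjusted p = 0.660). The gene next to it, 2610507I01Rik, was singled out after its values were seen, and 13 of the 14 strains high for 2610507I01Rik were among the 14 highest for Mrpl55. Within the 25 strains low for that gene, Mrpl55 correlated with it at r = -0.42 in high fat hearts and -0.18 in chow hearts, and within the 14 high strains at r = -0.19 and 0.099.

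Mrpl3 ran from 10.57 over 10.99 to 11.48 units in high fat hearts and from 10.50 over 11.11 to 11.58 units in chow hearts, without a gap of the kind seen for Mrpl35. Its largest gap between neighbouring strain means was 0.099 units, against 0.330 units for Mrpl35. Mrpl35, Mrpl20, Mrpl55 and Mrpl3 each had 1 probe set, so their strain patterns had no second reading on the array.

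**Figure D2:**
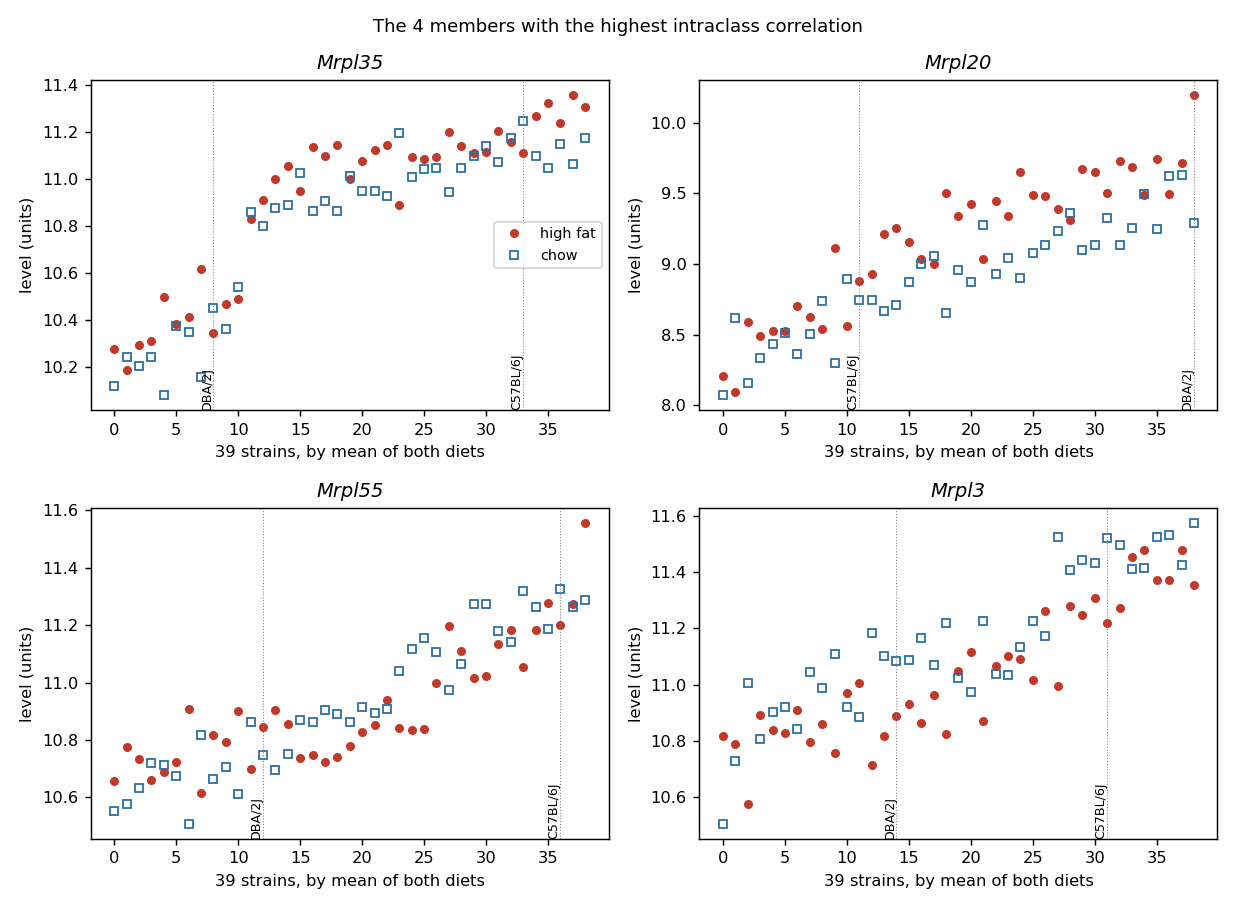
Levels (in units) of the 4 members with the highest intraclass correlation in each of 39 strains, ordered by the mean of both diets, with high fat arrays as filled circles and chow arrays as open squares. Mrpl35 falls into 11 low and 28 high strains on both diets, while Mrpl20, Mrpl55 and Mrpl3 are spread more evenly.

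The other called members had lower intraclass correlations. Mrpl39 (intraclass correlation 0.573), a large subunit protein, Mrpl16 (0.558), which in bacteria helps to place the transfer RNA, Mrpl17 (0.531), Mrpl58 (0.531), Mrpl54 (0.485) and Mrpl49 (0.447) completed the 10 highest. Mrpl46 (0.426), Mrps16 (0.401), Mrps18b (0.401) and Mrps27 (0.390), an RNA-binding protein of the small subunit, were called as well. Of the members above the median level, Mrps18c (-0.141), Mrpl36 (-0.081) and Mrps21 (-0.075) had the lowest values, so for these genes the 2 arrays of a strain were no more alike than arrays of different strains. Mrpl36 thus had a called diet difference and no called strain difference, while Mrpl55 had the reverse. Across strains the 2 probe sets of Mrps16 correlated at r = -0.059 in high fat hearts and 0.230 in chow hearts. Those of Mrps18c correlated at -0.100 and 0.048, and those of Mrps18b at 0.468 and 0.532. The strain results of Mrps16 and Mrps18c therefore hold for the probe set used.

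Strain calls were also counted among the neighbouring genes. Of 84 genes within 3 positions of a strain-called member 10 were called (11.9%), against 55 of 341 near the other members (16.1%). Of all genes 14.8% were called, so neighbours of strain-called members were not called more often. Apart from the neighbours of Mrpl35 and Mrpl55 above, Dvl1, a Wnt signalling gene near Mrpl20, also singled out after its values were seen, correlated with Mrpl20 at r = 0.679 in high fat hearts and 0.493 in chow hearts over 39 strains.

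Between the parents, 3 members were called in DBA/2J minus C57BL/6J, against a background of 2.36% of all genes. With 1 array per parent and diet, this contrast used the spread of the whole panel. Mrpl35 had 10.34 units on high fat and 10.45 units on chow in DBA/2J, against 11.11 units and 11.25 units in C57BL/6J. The difference was -0.782 ± 0.115 units (SE), with an adjusted p of 7.09e-06 in limma.

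Mrpl55 was lower in DBA/2J too, with 10.85 units on high fat and 10.75 units on chow, against 11.20 units and 11.33 units in C57BL/6J (-0.469 ± 0.129 units, adjusted p = 0.0365). With each array centred on its median Mrpl55 was not called (adjusted p = 0.0618). Mrpl20 was higher, with 10.20 units and 9.29 units in DBA/2J, against 8.88 units and 8.75 units in C57BL/6J (0.932 ± 0.227 units, adjusted p = 0.0125). Its diet difference in DBA/2J, 0.908 units, was the highest of the 39 strains. Mrps5 was lower in DBA/2J, with 9.14 units on high fat and 9.34 units on chow, against 9.71 units and 9.78 units in C57BL/6J, but its difference of -0.504 ± 0.159 units did not pass the threshold (adjusted p = 0.0870), though it did with atrial and brown fat marker means as covariates (adjusted p = 0.0346).

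Set against the midpoint of the parents, Mrpl35 was above it on both diets in 26 BXD strains and below it on both in 10, and 1 strain changed side. Mrpl55 was above the midpoint on both diets in 8 BXD strains, below it in 22 and on different sides in 7. For Mrpl20 the counts were 6 above, 20 below and 11 on different sides.

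Members tended to be high or low together across strains within a diet. Over 2485 pairs of members the median Pearson r across the 39 strains was 0.193 in high fat hearts and 0.183 in chow hearts, with 83.9% and 81.4% of pairs above 0. For genes above the median level the median pair had r = 0.018 in high fat hearts and 0.023 in chow hearts. Complex I subunits had medians of 0.295 and 0.192, with 90.2% and 82.4% of pairs above 0, and cytosolic ribosomal proteins had 0.103 and 0.072. Values of a pair within a diet share the array, the RNA pool and the scaling of that array. When one gene was read on the high fat array and the other on the chow array of the same strain, the median r of members was 0.063 and 65.4% of pairs were above 0, against a median of 0.009 for genes above the median level. Read in that way, complex I subunits had a median of 0.079 and cytosolic ribosomal proteins 0.057.

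These correlations are descriptions, and the array itself moved with them. The mean of the members correlated with the array's median level at r = -0.425 in high fat hearts and -0.692 in chow hearts. Centring each array on its median gave a median pairwise r of 0.226 in high fat hearts and 0.255 in chow hearts. The mean of 6 atrial markers, all 6 above the median gene level, ran from 8.70 over 12.50 to 13.88 units in high fat hearts and from 8.75 over 12.21 to 13.76 units in chow hearts, and correlated with the member mean at r = -0.437 and -0.329. The 5 brown fat markers, 2 of them above the median gene level, ran from 8.23 over 8.59 to 9.11 units in high fat hearts and from 8.19 over 8.41 to 9.49 units in chow hearts, with r = -0.437 and -0.116. Among themselves they had a median pairwise r of only 0.0016 and 0.172. White fat markers had r = -0.347 and -0.248 with the member mean, and the erythroid gene Slc4a1 -0.370 and -0.378. Fibroblast markers had -0.282 and -0.037, ventricular cardiomyocyte markers 0.115 and 0.176, and skeletal muscle markers 0.239 and 0.235. Endothelial, liver and macrophage markers lay between -0.216 and 0.035. With the atrial and brown fat marker means taken out, the median pairwise r of members was 0.150 in high fat hearts and 0.171 in chow hearts.

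The mean of the Mrpl genes and the mean of the Mrps genes went together within a diet, at r = 0.851 (Spearman's rho = 0.841) in high fat hearts and r = 0.868 (rho = 0.851) in chow hearts. Without the 2 strains furthest from the median these were r = 0.837 and r = 0.847. With the Mrpl mean from the high fat array and the Mrps mean from the chow array r was 0.362, and the other way round it was 0.221. The mean of all members itself correlated at r = 0.352 (rho = 0.334) between the high fat and the chow array of a strain, and at r = 0.287 without BXD49 and BXD95.

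**Figure D3:**
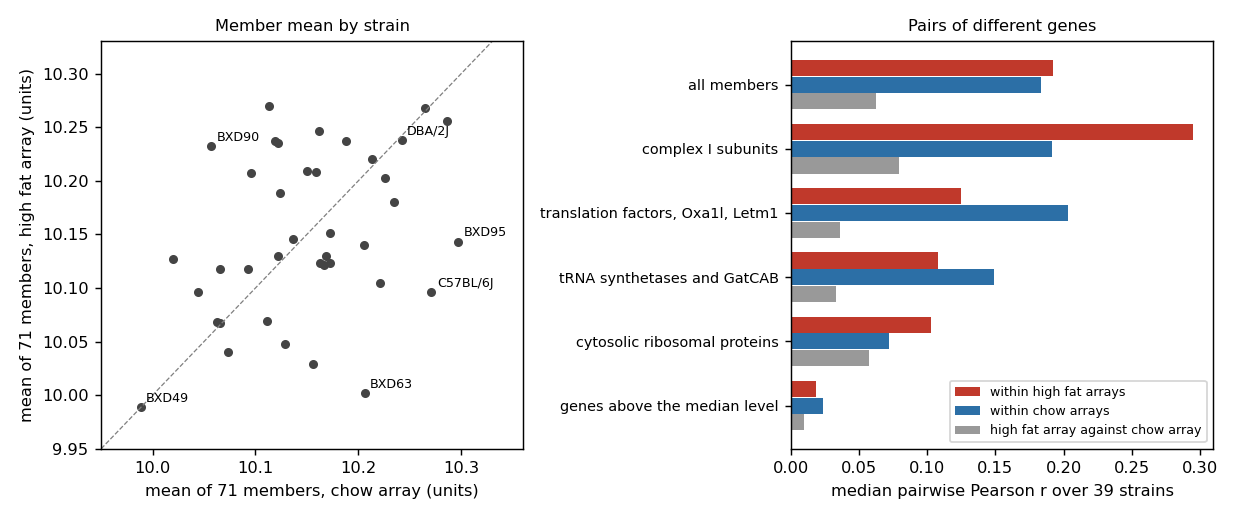
Left, mean of the 71 members (units) on the high fat array against the chow array of each of 39 strains, with the dashed line of equal values. Right, median pairwise r over 39 strains within high fat arrays, within chow arrays and across the diets. For members the bars stand at 0.193, 0.183 and 0.063, and for complex I subunits at 0.295, 0.192 and 0.079.

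Each member was also set against the mean of the other members. For this mean each gene was first scaled to the same mean and spread across strains within a diet, unlike the mean of levels used above. The median r was 0.445 in high fat hearts and 0.426 in chow hearts, and 67 of 71 members were above 0 on both diets. No other gene set was read in this way. Mrpl18, a protein of the central protuberance of the large subunit, followed the rest most closely, with r = 0.690 in high fat hearts and 0.740 in chow hearts. It ran from 10.13 over 10.47 to 10.73 units in high fat hearts, against 9.99, 10.43 and 10.69 units in chow hearts, without a called diet difference (0.0301 ± 0.0345 units, adjusted p = 0.4996).

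Mrpl51 had r = 0.597 in high fat hearts and 0.715 in chow hearts, and Mrps22, whose loss in humans causes cardiomyopathy, had 0.553 and 0.728. Mrps18a (0.650 and 0.610), Mrps33 (0.641 and 0.590), Mrps34 (0.566 and 0.627), Mrpl45 (0.521 and 0.667), which ties the ribosome to the inner membrane, and Mrps7 (0.470 and 0.687), a head protein of the small subunit, came next. These 8 genes include proteins of both subunits and of both the bacterial and the mitochondria-specific kind. The gene on 1 diet and the rest on the other gave median values of 0.144 (gene on high fat) and 0.169 (gene on chow).

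Among members above the median level the lowest values were those of Mrps21 (0.176 in high fat hearts and -0.115 in chow hearts), a small subunit protein, Mrpl17 (0.032 and 0.057), Mrpl3 (-0.005 and 0.341), Mrpl48 (-0.024 and 0.399) and Mrpl39 (0.159 and 0.250). Mrpl3, Mrpl17 and Mrpl39 were also among the 10 members with the highest intraclass correlation. Mrpl35, with the highest, had r = 0.591 with the rest in high fat hearts and 0.376 in chow hearts.

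**Figure D4:**
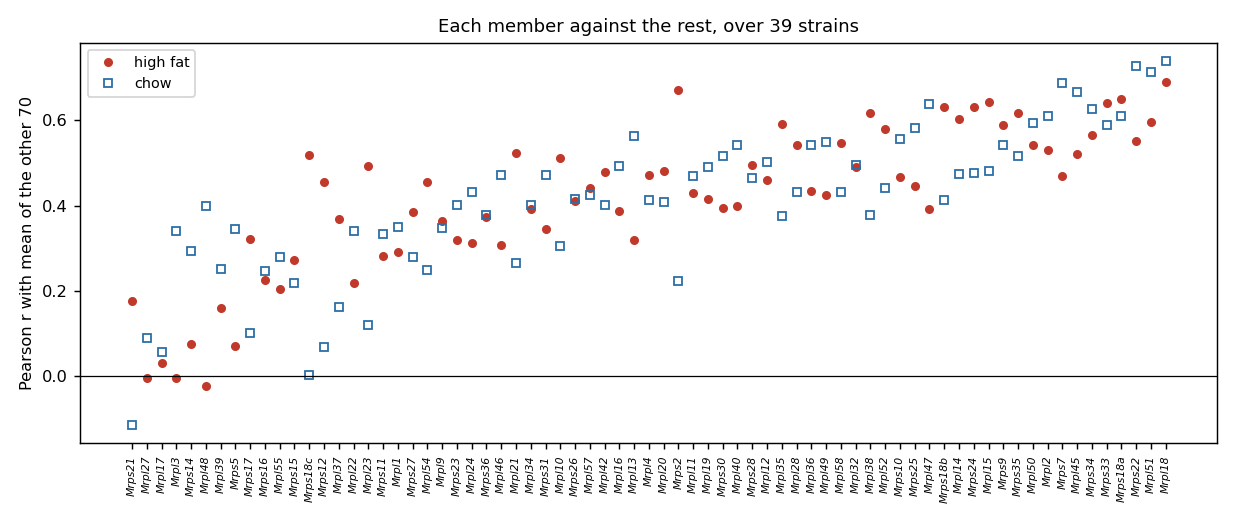
Pearson r of each member with the mean of the other members (each gene scaled across strains) over 39 strains, with high fat hearts as filled circles and chow hearts as open squares, ordered by the mean of both. Mrpl18 lies at the upper end (0.690 on high fat and 0.740 on chow) and Mrps21 at the lower end (0.176 on high fat and -0.115 on chow).

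Few single pairs were closely related on both diets. A total of 90 pairs had r over 0.5 in high fat hearts and 113 in chow hearts, and 9 pairs did so on both diets. Pairs of other genes over that cutoff were not counted, so these numbers have no background beside them. Among the 9 pairs were Mrpl10 and Mrpl4 (0.640 and 0.582), Mrpl18 and Mrpl51 (0.622 and 0.566), and Mrps18a and Mrps9 (0.608 and 0.521). Across the 2485 pairs the r on high fat correlated with the r on chow at 0.356. Mrpl12 and Mrps21 went in opposite directions, with r = -0.521 in high fat hearts and -0.699 in chow hearts, but read on different arrays of a strain the pair had a mean r of 0.126.

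Genes that work beside the mitochondrial ribosome were read from lists chosen for their function. Of the 3 mitochondrial ribosomal proteins with other names, Gadd45gip1, a large subunit protein, rose by 0.152 ± 0.0440 units (adjusted p = 0.00433), in 29 strains, and the small subunit proteins Dap3 and Ptcd3 were not called (-0.0041 ± 0.0228 and -0.107 ± 0.0700 units). All 3 differed between strains, Gadd45gip1 with an intraclass correlation of 0.847 (adjusted p = 1.56e-11). Of 23 genes of mitochondrial ribosome assembly and rRNA handling 3 were higher and 9 lower on high fat, against the 23.8% and 21.2% of all genes. In that list Mrm1, which methylates the large rRNA, rose by 0.260 ± 0.0370 units (adjusted p = 2.24e-07), Mettl17, a small subunit assembly factor, fell by 0.201 ± 0.0323 units (adjusted p = 2.26e-06) and Mterf3, a regulator of mitochondrial transcription and ribosome assembly in mice, fell by 0.177 ± 0.0342 units (adjusted p = 4.43e-05).

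A list of mitochondrial translation factors, which also holds the membrane insertase Oxa1l and the inner membrane protein Letm1, had 1 of 14 genes higher and 4 lower, with Oxa1l among the lower. Its called share was 35.7%, against 45.0% of all genes. Gfm1, an elongation factor, rose by 0.127 ± 0.0264 units (adjusted p = 0.000115), while the release factor Mtrf1 fell by 0.176 ± 0.0302 units (adjusted p = 7.21e-06) and the elongation factor Tsfm by 0.159 ± 0.0300 units (adjusted p = 3.17e-05). A list of mitochondrial tRNA synthetases, which also holds the amidotransferase genes Gatb, Gatc and Qrsl1, had 2 of 21 genes higher and 4 lower, a called share of 28.6%. Gars, which also serves the cytosol, rose by 0.151 ± 0.0239 units (adjusted p = 1.68e-06), the arginyl enzyme Rars2 rose by 0.196 ± 0.0340 units (adjusted p = 8.34e-06) and the prolyl enzyme Pars2 fell by 0.298 ± 0.0533 units (adjusted p = 1.40e-05).

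Of 11 genes of mitochondrial DNA upkeep and transcription 2 were higher and 3 lower, with the falls of Polg2 (-0.308 ± 0.0344 units, adjusted p = 1.06e-09), an accessory subunit of the DNA polymerase, of Tefm (-0.213 ± 0.0337 units, adjusted p = 1.65e-06), a transcription elongation factor, and of the nuclease Mgme1 (-0.231 ± 0.0401 units, adjusted p = 8.55e-06). Of 13 nuclear regulators of mitochondrial genes 4 were lower and the other 9 not called, with falls of the oestrogen-related receptors Esrrg (-0.150 ± 0.0257 units, adjusted p = 7.02e-06) and Esrrb (-0.185 ± 0.0409 units, adjusted p = 0.000263) and Nrf1 (-0.105 ± 0.0326 units, adjusted p = 0.00755), the factor of the NRF1 motif. Complex I holds proteins made on this ribosome. Its nuclear subunits were taken by Nduf symbol, a list that also holds Ndufa4 and Ndufa4l2, and 6 of 33 were higher and 8 lower. Cytosolic ribosomal proteins were taken by Rpl or Rps symbol, a list that also holds paralogs such as Rpl22l1, and 15 of 62 were higher and 7 lower. The called share was 45.5% for mitochondrial DNA upkeep and transcription and 30.8% for the nuclear regulators. It was 42.4% for complex I subunits and 35.5% for cytosolic ribosomal proteins, against 45.0% of all genes.

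The means of these lists were set against the member mean of the same array over 39 strains. The tRNA synthetase list had r = 0.804 in high fat hearts and 0.859 in chow hearts, the translation factor list 0.762 and 0.798, and the assembly genes 0.762 and 0.752. Complex I subunits had 0.640 and 0.668, genes of mitochondrial DNA and transcription 0.485 and 0.661, cytosolic ribosomal proteins 0.600 and 0.382, and the nuclear regulators 0.321 and 0.348. Read on the other diet's array, the tRNA synthetase list had 0.476 on high fat with the members on chow and 0.138 the other way round. The cytosolic ribosomal proteins had -0.044 on high fat with the members on chow and 0.427 the other way round.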

How the data were processed

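Gene expression was measured in hearts on 81 Affymetrix arrays. Per the submitters' processing notes the authors used Affymetrix Expression Console, with no version named and with background and summary steps not given in the sources used here. The deposited values are a score for each of 41345 probe sets, which proved to have a mean of 8 and an SD of 2 on each array. The plan assumed log2 values, and the base of the scale could not be settled. On such a scale a change common to most transcripts is removed. Arrays have no read depth, and precision is limited by their number.

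Of the probe sets, 23521 had 1 gene symbol, and no filter on level was applied. Diet was taken from the treatment label and strain from the genotype label. The protocol text of all samples describes chow only and so conflicts with the high fat labels. A model of strain and diet was fitted to the 78 arrays of 39 strains (limma 3.58.1 in R 4.3.3, lmFit, eBayes). Diet was tested as its term, strain with the F test of that model and the parents as a contrast, each adjusted by Benjamini-Hochberg over 22180 genes. The strain labels pair the arrays. After removal of the diet means the median r between both arrays of a strain was 0.248, that between arrays of different strains was -0.00927, and 37 of 39 strains were over 0.1. The fits were tested on simulated data.

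Members, lists and named genes were chosen with earlier results of these data known. Named for diet are called members with the same direction in at least 30 of 39 strains (up to 10 each way). Named for strain are the 10 highest intraclass correlations among called members and the 3 lowest above the median level. Named for the parents are called members, and for coordination the 8 highest and the 5 lowest above the median level. Mrps5, Mrpl12, Mrps12, Mrpl37, Mrps18a, Mrps18b, Mrps18c and Mrps36 are always named, with up to 3 genes of the smallest adjusted p from each other list. Alternatives covered the strain block, normalization, array weights, moderation, probe sets, level, strains and marker covariates.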

Additional observations from a re-analysis of the deposited data

How the results depend on the processing

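Under the alternatives run, counts were held against 1.5 times the reported count. The median intraclass correlation and the median pairwise r were held against a standard error from leaving out each strain in turn. For the median diet difference the bound was the SD of the strain medians, 0.0839 units. That is wide beside its value of 0.0044 units, so a change of sign could fall within it. The results kept within these bounds with 3 exceptions. The median pairwise r in chow hearts was 0.255 with each array centred on its median and 0.146 after quantile normalization, and the median pairwise r in high fat hearts was 0.150 with atrial and brown fat marker means as covariates. The cause was not tested. Without the strain block, in a fit with no pairing of all 39 high fat and 42 chow arrays, 10 members were higher and 13 lower, and the median diet difference was 0.0138 units. Of the 28 called members 5 (Mrpl3, Mrpl35, Mrpl54, Mrps11 and Mrps27) were then no longer called. Quantile normalization lost Mrpl54 and Mrps11, and the mean over probe sets lost Mrpl36 and Mrps16, and the marker covariates lost Mrps27. Leaving out each strain in turn gave 11 to 14 members higher, 14 to 15 lower, 11 to 17 with strain differences and 3 between the parents. Centring each array on its median left 2 members called between the parents, without Mrpl55, and the marker covariates gave 4, with Mrps5 added. In the fits that left out a strain, only Mrpl54, Mrps11 and Mrps27 lost their diet call. Across those fits the median diet difference ran from -0.0018 to 0.0150 units, so its sign rests on single strains. The median intraclass correlation ran from 0.208 to 0.277, and the median pairwise r from 0.171 to 0.201 in high fat hearts, from 0.167 to 0.190 in chow hearts and from 0.039 to 0.073 across diets. An alternative chosen after seeing the data left out BXD63 and BXD80, which had extreme shifts of the atrial markers, and gave 16 members higher and 14 lower, with Mrps27 no longer called. No called member reversed its direction under any of these alternatives. They did not include the second probe set taken alone, on which Mrpl36 (-0.145 units) and Mrps16 (-0.147 units) went the opposite way.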

Other observations

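The 3 strains with a chow array alone entered no paired test. Their member means were 10.15 units (BXD60), 10.08 units (BXD79) and 10.14 units (BXD92a), inside the range of the 39 paired strains on chow. For Mrpl35, BXD60 had 10.27 units, a value within the low cluster, while BXD79 had 10.95 units and BXD92a 11.02 units, values within the high cluster. For Mrpl20, BXD79 had 9.83 units, above the highest of the 39 paired chow arrays (9.63 units), and BXD60 and BXD92a had 8.45 and 8.54 units.

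Members with and without the promoter motifs were alike in how closely they followed the other members. The median r with the rest was 0.423 for the 36 members with an NRF1, ETS or YY1 match and 0.442 for the 26 members without one. Their median diet differences, high fat minus chow, were -0.0050 and 0.0241 units. These values are descriptions of 62 genes, and the differences between them were not tested.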
